A study of Mus musculus with 38 samples.

Results

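The transcription factor p53 (gene Trp53) and genes that it controls were followed across mouse kidney tumours and cell lines that carry an intact or a deleted Ink4a/Arf locus. The members are 10 genes chosen by name, with earlier results of these data known, namely Trp53, Mdm2, Mdm4, Ccng1, Bbc3, Bax, Pmaip1, Sesn2, Zmat3 and Phlda3. Each was found by its symbol among the 21705 genes of 1 RNA-seq table, and all 10 passed the filter on low values in every comparison.

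The table holds 38 libraries in 10 groups. All tumour lines and tumours carry Ksp-rtTA and Tet-O-Myc, which together switch on a Myc transgene in renal tubule cells when doxycycline (Dox) is given, and mice with these alleles alone are called MYC. VM mice also carry KspCre ERT2 and Vhl F/F, so that tamoxifen removes the tumour suppressor Vhl from tubule cells. VIM mice add a germline Ink4a/Arf-/- deletion (gene Cdkn2a) that every cell of the animal carries. The lines MYC-2983, VM-3055 and VIM-3039 came from such tumours. Their cells were either kept on Dox or had it withdrawn, were collected the next day, and gave 4 libraries for each line and state. Tumours of the MYC, VM and VIM genotypes gave 3 libraries each, from mice kept on Dox, and kidneys of wild-type mice given vehicle gave 5, of which 2 are titled B6 and 3 KT. The MYC tumours come from 2 mice, since 2 of the 3 libraries are from mouse 2983, and the VM and VIM tumours come from 3 mice each. There is 1 line per genotype, so genotype and line cannot be told apart in the cells, and p-values there measure only the spread between libraries of a line.

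The pathway in which these genes act is a loop. Arf, one of the 2 proteins encoded by Cdkn2a, holds back Mdm2, the ubiquitin ligase that marks p53 for destruction, and its relative Mdm4 (Mdmx) blocks p53 activity. High MYC activity is a classic inducer of Arf. Once p53 accumulates, it switches on cell cycle inhibitors, pro-apoptotic genes and Mdm2 itself. Most regulation of p53 takes place on the protein, which RNA-seq does not measure, so the RNA of its targets is the usual readout.

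The consensus p53 element is a pair of half-sites of 10 bases, taken here without a gap. Each has the core CNNG in which both middle letters are A or T. The mm9 sequence was searched from 3000 bases before to 3000 bases after each gene's annotated start for this p53 response element, with both cores exact and at most 2 other mismatches. The element reads the same on both strands, so 1 pass covers both. Of the 10 members, 3 held such a site, against 3.62% of 20136 protein-coding genes. Of 32 other p53 targets 8 did (25.0%), and of 20 regulators of p53 none did. The sites of Zmat3 and Ccng1 are shown because these genes behaved differently in the cells although both hold a close match. The site of Cdkn1a, the best known p53 target, is shown for comparison. Capitals mark the cores.
Zmat3, chr3:32263253-32263272, minus strand: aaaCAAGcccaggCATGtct
Ccng1, chr11:40568438-40568457, minus strand: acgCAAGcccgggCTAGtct
Cdkn1a, chr17:29227873-29227892, plus strand: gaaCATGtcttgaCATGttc

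The Zmat3 site has 0 mismatches and lies in an intron, 1328 bases after the gene start. Such an exact site stood in 0.0993% of all windows. The Ccng1 site has 1 mismatch and lies in an intron, 356 bases after the start. The Cdkn1a site has 1 mismatch and lies 51 bases upstream of the outermost annotated start of that gene. Cdkn1a has 3 annotated transcripts, and the distance to the start of each was not examined. A site with at most 1 mismatch stood in 0.75% of all windows. The third member with a match is Pmaip1, whose sequence is not printed. The other members had no match within these windows by this search. It allowed no gap between half-sites and no mismatch in a core, so it says nothing about other forms of site or about binding elsewhere. In wider context of 80 bases, the members' sites read as follows.
Zmat3, chr3:32263223-32263302, minus strand: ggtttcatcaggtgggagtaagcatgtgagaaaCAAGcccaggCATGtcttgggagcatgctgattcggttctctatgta
Ccng1, chr11:40568408-40568487, minus strand: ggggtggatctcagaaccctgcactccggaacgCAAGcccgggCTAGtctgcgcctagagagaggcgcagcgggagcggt

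Values are normalized units, in which the upper quartile of each library is 1000. Estimated depth was 12400000 to 36600000 reads in the cell libraries and 8220000 to 15500000 in the tissue libraries, so that 3 reads were worth 1.16 to 5.65 units. Vhl was 8.32 to 38.8 units in both lines with deleted Vhl against 433 to 543 units in MYC-2983 cells. Cdkn2a was 24.9 to 40.8 units in VIM-3039 cells against 3056 to 5701 units in the other lines. Cdkn2a was also low in 2 of the 3 MYC tumour libraries, at 108 units in mouse 2917 and 59.3 units in one library of mouse 2983, against 2872 units in the other library of that mouse. Thus an intact locus did not mean high Cdkn2a RNA in every library. The Myc gene of the table was lower with Dox in all 3 lines (338 to 699 units with Dox, 1308 to 1868 units without), and whether transgene reads count there was not tested. Renal epithelial markers (Cdh16, Pax8, Pax2, Epcam) were high in all cell groups, with summed levels of 5721 to 17312 units, while the 4 endothelial markers summed to at most 12.5 units. The 5 fibroblast markers summed to 76.4 to 505 units in MYC-2983 cells and 1.75 to 74.0 units in the other lines, and their part in differences from MYC-2983 cells was not tested.

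Trp53 RNA (mm9 chr11:69393861-69405375, plus strand) was far higher in the cells with deleted Ink4a/Arf than in either line with the intact locus. In VIM-3039 cells with Dox the 4 libraries measured 3141, 3104, 3112 and 3210 units, and without Dox 2207, 2144, 2236 and 2406 units. VM-3055 cells measured 203, 209, 195 and 182 units with Dox and 233, 224, 243 and 207 units without. MYC-2983 cells measured 299.7, 347, 336 and 331 units with Dox and 172, 176, 167 and 147 units without. No VIM-3039 library came near those of the other lines. In limma fits over all genes tested, Trp53 was 15.9-fold higher in VIM-3039 than in VM-3055 cells with Dox (log2 change 3.99, SE 0.045, adjusted p = 1.11e-18). It was also higher than in MYC-2983 cells (log2 change 3.26 with Dox and 3.76 without). Here and throughout, passing required a log2 change beyond 1 in either direction besides an adjusted p below 0.05.

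Ordered by median, Trp53 was highest in VIM-3039 cells with Dox, then without Dox, then in MYC tumours (1699 to 2236 units), VIM tumours (786 to 1487 units), VM tumours (235 to 1230 units), normal kidney (369 to 449.5 units), MYC-2983 cells with Dox, VM-3055 cells without and with Dox, and MYC-2983 cells without Dox. Neighbours in this order overlapped for VIM-3039 cells without Dox and MYC tumours, for VIM and VM tumours, for VM tumours and normal kidney, and for the Dox states of VM-3055 cells. Cells and tissue were not tested against each other. The 2 tumour libraries of mouse 2983 stood at 1699 and 2236 units while the MYC-2983 cells stood at 147 to 347 units. The VM tumour of mouse 3055 stood at 235 units beside 182 to 243 units in VM-3055 cells. The annotation also holds a Trp53 pseudogene, and how the authors' counting divided reads between the copies was not tested.

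**Figure D1:**
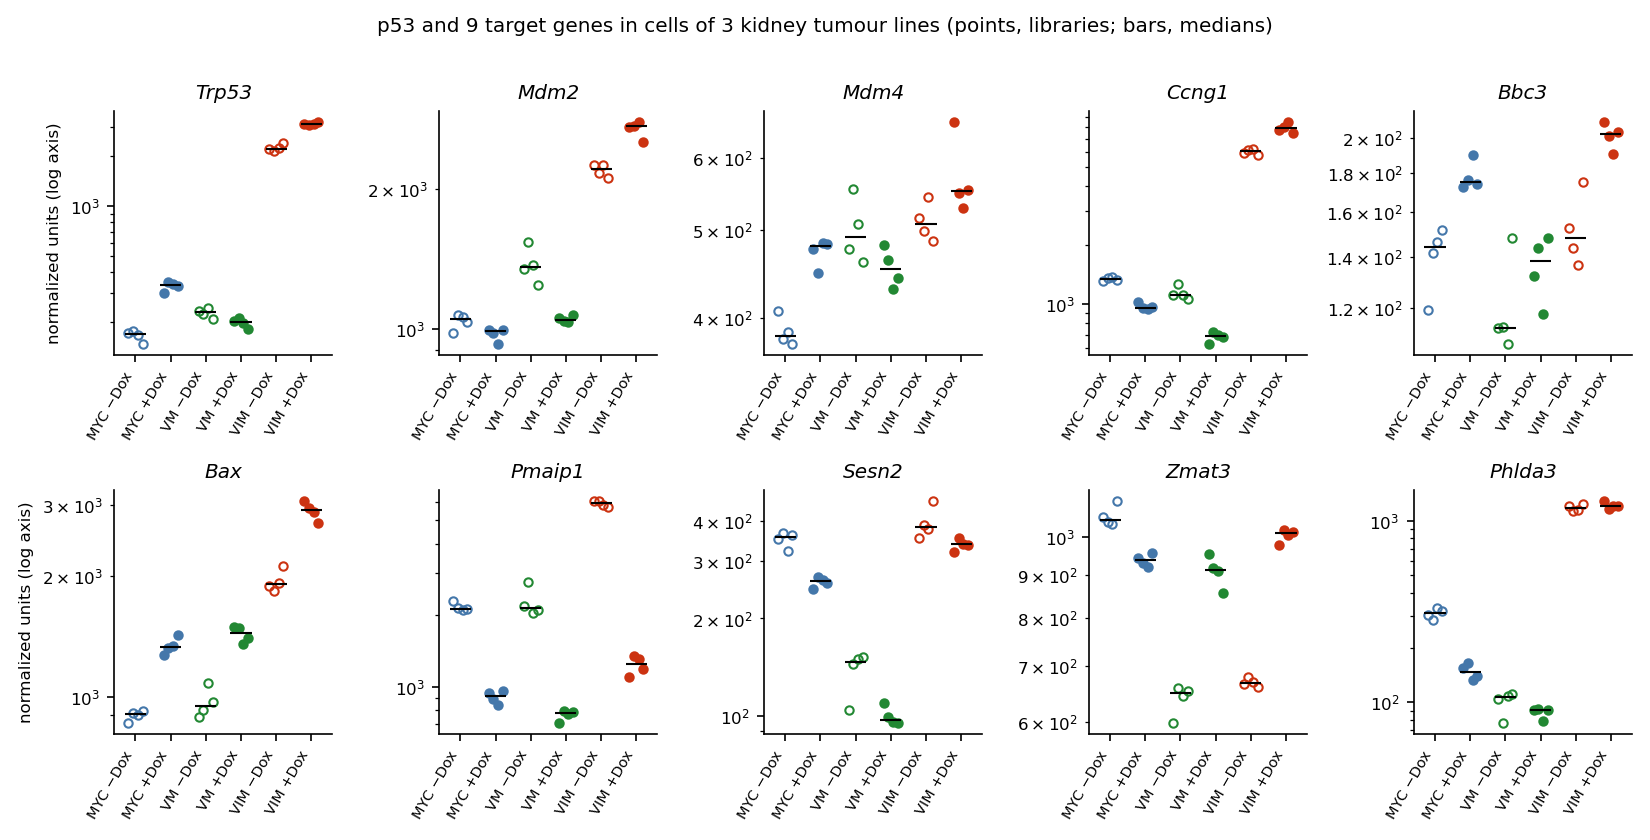
Levels of the 10 members in the 3 cell lines. Each panel is a gene, with normalized units on a log axis, a point per library (open without Dox, filled with Dox) and a bar at the median of 4 libraries. VIM-3039 libraries of Trp53, Ccng1 and Phlda3 lie far above all others, while Zmat3 with Dox is at 857 to 1019.7 units in all 3 lines.

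Of the 10 members, 6 were higher and 0 lower in VIM-3039 than in VM-3055 cells with Dox, in a comparison in which 9.69% of all genes tested were higher and 9.45% lower. The members' median log2 change was 1.19, beside 0.02 over all genes. Since the members were chosen with earlier results of these data known, their counts and medians describe them and are not an independent test. Against MYC-2983 cells with Dox 5 were higher and 0 lower (background 5.66% higher and 18.3% lower, median 0.78 beside -0.18). The 2 comparisons share the VIM-3039 libraries. Between the lines with intact Ink4a/Arf, VM-3055 against MYC-2983 with Dox, 0 members were higher and 1 was lower (background 6.54% higher and 18.1% lower, median -0.32 beside -0.19). The member that fell was Sesn2. All these lines differ in many genes, which the background shows.

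The negative regulators of p53 split. Mdm2 (chr10:117125944-117147814, minus strand), which is both an inhibitor and a target of p53, measured 2726, 2735, 2787 and 2531 units in VIM-3039 cells with Dox against 1053, 1038, 1034 and 1069 units in VM-3055 and 993, 980, 928 and 995 units in MYC-2983 cells. The VIM-3039 libraries were all higher, and the change was 2.57-fold against VM-3055 (log2 change 1.36, SE 0.0351, adjusted p = 8.25e-15) and 1.47 on the log2 scale against MYC-2983. Mdm4 (chr1:134886422-134921943, minus strand), which binds p53 and inhibits its activity, measured 657, 550, 529 and 554 units in VIM-3039, 481, 464, 430 and 443 units in VM-3055 and 477, 449, 484 and 483 units in MYC-2983 cells. The VIM-3039 libraries were all above those of the other lines, which overlapped each other, but its log2 changes of 0.33 and 0.27 did not pass the fold limit. The annotation holds an Mdm4 pseudogene, and shared reads were not examined.

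Ccng1 (cyclin G1, a p53 target that recruits a phosphatase to Mdm2) and Phlda3 (an inhibitor of Akt) showed the widest differences among the targets. Ccng1 measured 7769, 8080, 8499 and 7457 units in VIM-3039 cells with Dox, 628, 722, 697 and 680 units in VM-3055 and 1031, 952, 943 and 973 units in MYC-2983 cells. Its log2 change was 3.54 (SE 0.0454) against VM-3055 and 3.03 (SE 0.0398) against MYC-2983. Phlda3 measured 1282, 1167, 1203 and 1200 units in VIM-3039, 90.9, 91.9, 78.9 and 91.2 units in VM-3055 and 155, 165, 132 and 140 units in MYC-2983 cells. Its log2 change was 3.77 (SE 0.0629) against VM-3055 and 3.03 (SE 0.063) against MYC-2983. For both genes every VIM-3039 library was above every library of the other lines.

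The members that act in apoptosis at the mitochondrion moved less. Bax, the pore-forming BCL2 family protein, measured 3062, 2937, 2883 and 2702 units in VIM-3039 cells with Dox, 1495, 1481, 1353 and 1403 units in VM-3055 and 1272, 1325, 1337 and 1428 units in MYC-2983 cells. Its log2 change of 1.01 (SE 0.0419) against VM-3055 cells passed narrowly and fell to 0.99 without VM-3055 replicate 3 or without VIM-3039 replicate 1. Against MYC-2983 cells it was 1.11. The BH3-only genes, which trigger Bax, did not pass the fold limit. Bbc3 (Puma) measured 190.3 to 209.6 units in VIM-3039, 118 to 148 units in VM-3055 and 173 to 190.2 units in MYC-2983 cells, with log2 changes of 0.57 and 0.17. Pmaip1 (Noxa) measured 1103 to 1352 units, 711 to 793 units and 846 to 967 units, with log2 changes of 0.69 and 0.44.

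Sesn2, which restrains mTORC1 under stress, differed mainly by low values in VM-3055 cells, and less by higher values in VIM-3039 cells. With Dox it measured 319, 354, 339 and 336 units in VIM-3039, 110.1, 99.6, 95.9 and 95.6 units in VM-3055 and 247, 269, 262 and 258 units in MYC-2983 cells. It was thus 1.74 higher in VIM-3039 than in VM-3055 cells on the log2 scale (SE 0.0767). Every VIM-3039 library was also above every MYC-2983 library, but that change of 0.38 did not pass the fold limit. VM-3055 cells were lower than MYC-2983 cells, at -1.36 on that scale. With quantile normalization this last value was -0.97 and no longer passed. Zmat3 (Wig1), an RNA-binding protein and the member with the exact response element above, measured 977 to 1019.7 units in VIM-3039, 857 to 953 units in VM-3055 and 920 to 956 units in MYC-2983 cells. Its log2 changes of 0.14 and 0.10 did not pass.

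**Figure D2:**
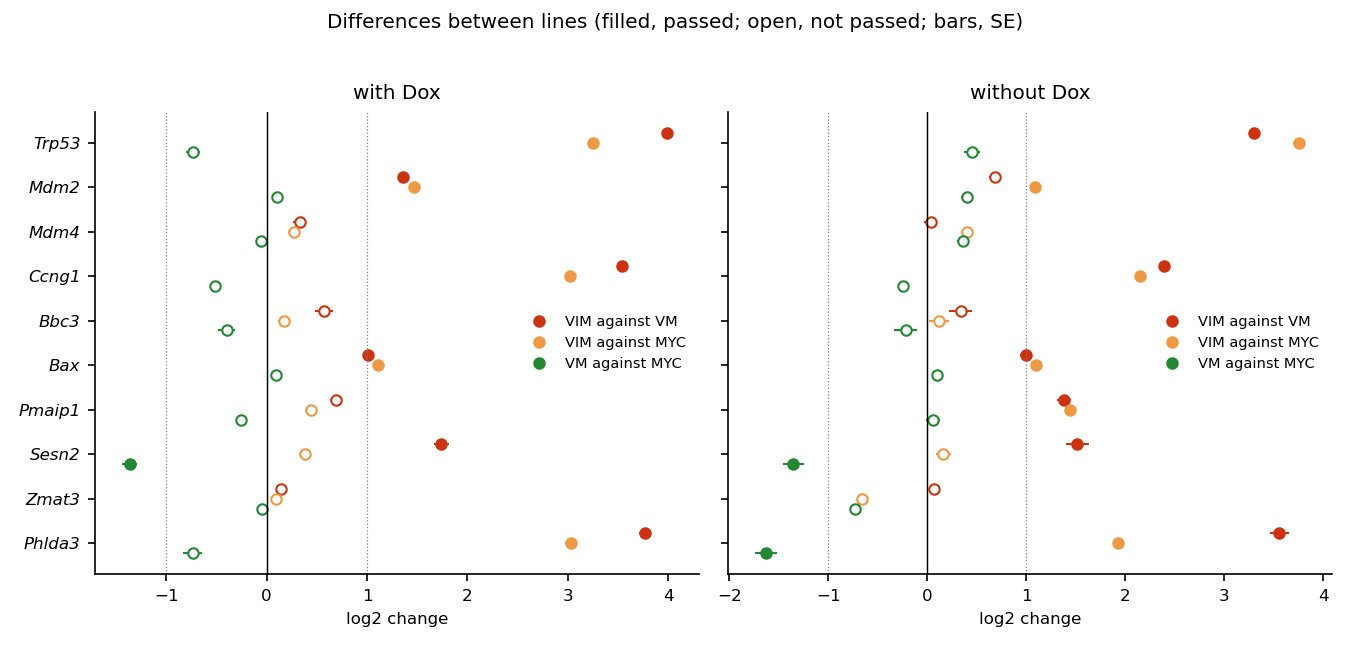
Log2 changes of the 10 members between the lines with Dox (left) and without (right), with bars for the standard error. Filled points passed and open points did not. Trp53, Ccng1 and Phlda3 lie at 1.93 or more in all 4 comparisons of VIM-3039 cells with another line, and the points of VM-3055 against MYC-2983 cells lie between -1.63 and 0.45.

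Without Dox the count against VM-3055 cells was again 6 higher and 0 lower (background 9.21% higher and 12.5% lower), with a different makeup. Mdm2 no longer passed, at 2119 to 2256 units in VIM-3039 against 1243 to 1539 units in VM-3055 cells (log2 change 0.68). Pmaip1 now did, at 5716 to 6021 units against 2045 to 2753 units (log2 change 1.38, SE 0.0707). The others were Trp53 (3.31), Phlda3 (3.56), Ccng1 (2.40), Sesn2 (1.52) and Bax (1.003). Bax fell short of a change of 1 with a pseudocount of 10 and without VM-3055 replicate 1 or 2 or VIM-3039 replicate 4, at 0.96 to 0.996. Against MYC-2983 cells 6 were also higher and 0 lower (background 6.88% higher and 19.3% lower). These were Trp53, Ccng1 (2.16), Phlda3 (1.93), Pmaip1 (1.44), Bax (1.10) and Mdm2 (1.09). Zmat3 went the other way, at 661 to 679 units in VIM-3039 against 1034 to 1102.5 units in MYC-2983 cells. Its log2 change of -0.66 (adjusted p = 9.65e-11 in limma) missed the fold limit. In VM-3055 against MYC-2983 cells Zmat3 was likewise lower, at -0.73, and missed that limit. VM-3055 against MYC-2983 cells gave 0 higher and 2 lower (background 8.36% higher and 16.6% lower), Sesn2 at -1.35 and Phlda3 at -1.63.

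The scale on which these lines are compared matters for the genome as a whole. Between VIM-3039 and MYC-2983 cells with Dox the median gene above 50 units stood at -0.12 on the log2 scale, and at 0.04 after TMM rescaling. The median was -0.14 for VM-3055 against MYC-2983 cells with Dox and -0.13 for VIM-3039 against MYC-2983 cells without Dox. Of the genes that passed between VIM-3039 and MYC-2983 cells with Dox 23.6% were higher, and 48.2% after quantile normalization. The same share went from 26.6% to 52.1% for VM-3055 against MYC-2983 cells with Dox, and without Dox from 26.3% to 48.5% for VIM-3039 and from 33.5% to 51.9% for VM-3055 cells. The members' counts of 5 and 6 against MYC-2983 cells and of 6 against VM-3055 cells were the same under TMM rescaling and quantile normalization.

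Other p53 targets are a list of 32 genes outside the members, also chosen with earlier results of these data known. Many of them stood higher in VIM-3039 cells with Dox. Against VM-3055 cells 18 of 31 tested were higher and 1 was lower (background 9.69% and 9.45%), with a median log2 change of 1.14. Against MYC-2983 cells 12 of 32 were higher and 4 lower (background 5.66% and 18.3%), with a median of 0.57. Cdkn1a, which encodes the cell cycle inhibitor p21, measured 2384 to 2395 units in VIM-3039, 525 to 563 units in VM-3055 and 148 to 163 units in MYC-2983 cells, with no overlap between lines (log2 change 2.12, SE 0.0345, against VM-3055 and 3.92, SE 0.0375, against MYC-2983). Eda2r, a TNF receptor family member, measured 720 to 829 units, 2.55 to 6.14 units and 20.05 to 26.3 units in the same order, with log2 changes of 7.14 and 4.999. Trp53inp1, which promotes p53 phosphorylation and autophagy, was 2.84 and 4.14 higher on that scale.

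The largest difference between VIM-3039 and VM-3055 cells in this list was in Ephx1, an epoxide hydrolase, at 7.22 on the log2 scale. It measured 1034 to 1111 units in VIM-3039, 450 to 462 units in MYC-2983 and 5.11 to 6.79 units in VM-3055 cells, and VM-3055 cells were lower than MYC-2983 cells, at -6.00 on that scale. Ak1, an adenylate kinase, measured 249 to 309 units, 87.2 to 104 units and 0.85 to 5.17 units in the same order, the last being near or under 3 reads (2.22 to 2.63 units there). Between VM-3055 and MYC-2983 cells with Dox 2 of the 32 targets were higher and 9 lower (background 6.54% and 18.1%). Thus some of the differences of VIM-3039 from VM-3055 cells were in genes that were low in VM-3055 cells, such as Ephx1, and others in genes that were higher in VIM-3039 cells than in both lines, such as Cdkn1a. Gadd45a, a stress gene that p53 shares with other pathways, was the single target lower in VIM-3039 than in VM-3055 cells, at -1.04.

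**Figure D3:**
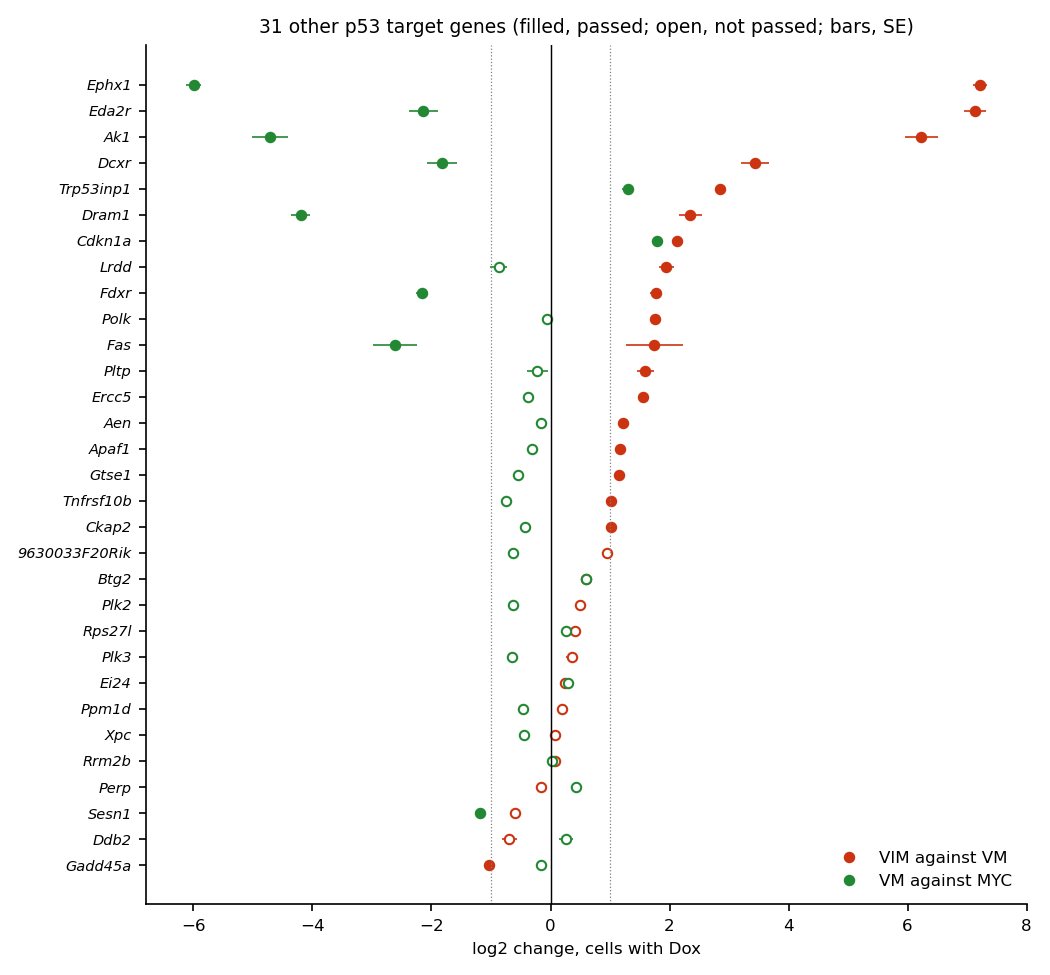
Log2 changes in cells with Dox of the 31 other p53 targets tested between VIM-3039 and VM-3055 cells (red), with those of the same genes between VM-3055 and MYC-2983 cells (green). Bars are standard errors, filled points passed, and genes are ordered by the red value. Both comparisons use the VM-3055 libraries, and Ephx1, Eda2r, Ak1 and Dram1 are far from 0 in both.

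Without Dox the list of other targets stood at 10 higher and 2 lower of 32 against VM-3055 cells and at 6 higher and 5 lower against MYC-2983 cells, and at 6 higher and 3 lower after TMM rescaling. The 5 lower genes include Tnfrsf18 (-3.32), Dram1 (-2.31) and Sesn1 (-1.36). VM-3055 against MYC-2983 cells gave 2 higher and 8 lower. The backgrounds are those given above for the members without Dox.

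The lists around the members did not follow them. Their backgrounds are those given above for the members with Dox. Of the regulators of p53, 18 were tested and Cdkn2a alone passed between VIM-3039 and VM-3055 cells with Dox, at -6.95 on the log2 scale. Against MYC-2983 cells Ppp1r13l (iASPP), an inhibitor of p53, was 1.40 higher. In the BCL2 family outside the members 0 of 12 were higher and 2 lower against VM-3055 cells, namely the BH3-only genes Hrk (-3.07) and Bcl2l11 (Bim, -1.20). Against MYC-2983 cells 0 were higher and 6 lower, led by Bik (-3.58), Hrk (-2.66), Bmf (-2.23) and Bcl2l11 (-1.64). Of 8 targets of ATF4, a stress factor that can also induce Sesn2 and Pmaip1, only Ddit4 passed against VM-3055 cells (1.15), and against MYC-2983 cells Ddit4 was higher (1.78) and Ddit3 lower (-1.57). Proliferation differed as well. The summed level of 4 cycling genes (Mki67, Top2a, Ccnb1, Cdk1) was 19140 to 19508 units in VIM-3039, 23582 to 24832 units in VM-3055 and 23084 to 24270 units in MYC-2983 cells with Dox, and its part in the members' levels was not tested.

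Without Dox the other lists were similar in count, and the backgrounds are those given above for the members without Dox. Cdkn2a was again the single regulator to pass against VM-3055 cells (-7.21). In the BCL2 family 0 were higher and 3 lower against VM-3055 cells and 0 higher and 6 lower against MYC-2983 cells. The ATF4 targets gave 1 higher and 0 lower against VM-3055 cells, and 1 higher and 2 lower against MYC-2983 cells.

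Within a line, cells kept on Dox were compared with cells from which it had been withdrawn, and changes are given as Dox against no Dox. Pmaip1 was lower with Dox in all 3 lines. It went from 5716 to 6021 units down to 1103 to 1352 units in VIM-3039 cells (log2 change -2.25, SE 0.0471), from 2045 to 2753 units down to 711 to 793 units in VM-3055 cells (-1.56, SE 0.0736) and from 2106 to 2292 units down to 846 to 967 units in MYC-2983 cells (-1.25, SE 0.0389). No library with Dox overlapped those without. It was the single member to pass in VIM-3039 cells (background 7.67% higher and 16.6% lower) and in VM-3055 cells (background 5.92% higher and 18.9% lower). In MYC-2983 cells 2 members fell and 0 rose (background 4.49% higher and 15% lower, and 1 rose and 1 fell by TMM rescaling and by quantile normalization).

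The second member to fall in MYC-2983 cells was Phlda3, from 301, 286, 330 and 319 units to 155, 165, 132 and 140 units (log2 change -1.06, SE 0.0725). With TMM rescaling it was -0.93 and with quantile normalization -0.87, neither of which passed. In VM-3055 cells it changed by -0.17, and in VIM-3039 cells by 0.04. Trp53 went from 147 to 176 units up to 299.7 to 347 units in MYC-2983 cells, a log2 change of 0.99 (SE 0.0667) that missed the fold limit, and it passed at 1.12 with TMM rescaling and 1.17 with quantile normalization. It changed by 0.48 in VIM-3039 and by -0.20 in VM-3055 cells. Bax changed by 0.57, 0.58 and 0.57 in VM-3055, VIM-3039 and MYC-2983 cells, under the fold limit in each.

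**Figure D4:**
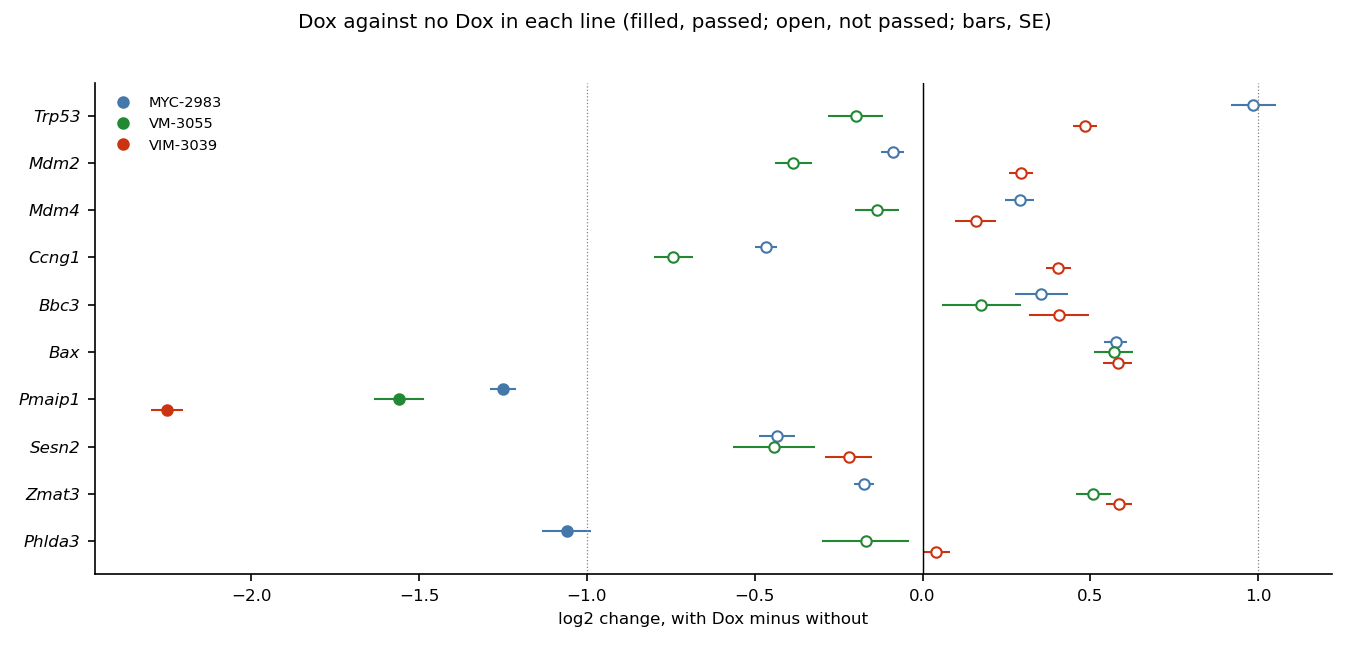
Log2 change with Dox against without Dox for the 10 members in each line, with bars for the standard error. Filled points passed and open points did not. Pmaip1 lies at -1.25 to -2.25 in the 3 lines, and Ccng1 lies below 0 in MYC-2983 and VM-3055 and above 0 in VIM-3039 cells.

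The effects of Dox passed as different between lines for 4 members, by the interaction term. Smaller differences with an adjusted p below 0.05 missed the fold limit. They include Mdm2 between VIM-3039 and VM-3055 cells (0.68) and Zmat3 between VIM-3039 and MYC-2983 cells (0.76). Ccng1 went from 5763 to 6192 units up to 7457 to 8499 units with Dox in VIM-3039 cells (0.40) but from 1067 to 1263 units down to 628 to 722 units in VM-3055 cells (-0.74), a difference of 1.15 (SE 0.0715, adjusted p = 5.4e-11). It was the single member to pass there (background 3.7% higher and 2.35% lower), and after TMM rescaling the difference was 0.99 and did not pass. Ccng1 also went down in MYC-2983 cells (-0.47), and the difference of 0.87 between VIM-3039 and MYC-2983 cells did not pass the fold limit. Between these lines the Dox effect on Phlda3 differed by 1.10 (SE 0.0837) and that on Pmaip1 by -1.001 (SE 0.071), with a background of 4.54% higher and 4.52% lower. Both are close to the limit, and Pmaip1 fell short of it without 9 of the 16 libraries in turn, at -0.95 to -0.997, as well as after TMM rescaling (-0.92), and Phlda3 after quantile normalization (0.97). Between VM-3055 and MYC-2983 cells Trp53 differed by -1.18 (SE 0.103, background 3.26% higher and 5.53% lower).

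Some other p53 targets changed with Dox, in both directions. In VM-3055 cells 1 of 31 rose and 8 fell (3.2% and 25.8%, beside 5.92% and 18.9% of all genes). After TMM rescaling 4 rose and 5 fell. In VIM-3039 cells 4 of 32 rose and 3 fell (12.5% and 9.4%, beside 7.67% and 16.6%), and 6 and 2 after TMM rescaling. In MYC-2983 cells 1 rose and 5 fell (3.1% and 15.6%, beside 4.49% and 15%), and 2 and 4 after TMM rescaling. These counts are small and lie near the shares over all genes, so no response of the list is read from them. Cdkn1a went from 1905 to 2105 units without Dox to 2384 to 2395 units with Dox in VIM-3039 cells, and from 1094 to 1206 units down to 525 to 563 units in VM-3055 cells, and the difference between these effects was 1.35. Of the 32 targets 6 had a higher Dox effect in VIM-3039 than in VM-3055 cells and 0 a lower one (background 3.7% and 2.35%). Against MYC-2983 cells the counts were 5 and 0 (background 4.54% and 4.52%, and 2 and 0 after quantile normalization). Between VM-3055 and MYC-2983 cells 1 was higher and 3 lower (background 3.26% and 5.53%, and 2 and 1 after quantile normalization). The 6 genes with a higher effect in VIM-3039 than in VM-3055 cells include Trp53inp1 (1.95), Eda2r (1.80) and Ak1 (2.88). Eda2r and Ak1 were near the level of 3 reads (2.22 to 2.63 units) in VM-3055 cells with Dox, so their differences rest on few reads there. Plk2, a polo-like kinase, fell in all 3 lines, with log2 changes of -1.43, -1.31 and -1.40 in VM-3055, VIM-3039 and MYC-2983 cells.

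Of the other lists, the regulator Chek1, the kinase of the replication checkpoint, rose in all 3 lines (1.35, 1.64 and 1.03 in VM-3055, VIM-3039 and MYC-2983 cells), and Hrk rose in all 3 (2.01, 2.69 and 2.99). In the BCL2 family 1 rose and 3 fell in VM-3055, 2 rose and 2 fell in VIM-3039 and 2 rose and 4 fell in MYC-2983 cells. The shares of all genes that rose and fell are those given for each line above. The ATF4 target Ddit3 (Chop) fell in all 3, with changes of -1.92, -2.12 and -1.22. The summed cycling genes were 8808 to 9474 units without Dox and 19140 to 19508 units with Dox in VIM-3039 cells, and likewise higher with Dox in the other lines. Their part in the changes above was not tested. The share of higher genes among all that passed with Dox was 23.8% (VM-3055), 31.6% (VIM-3039) and 23.0% (MYC-2983), and 48.4%, 49.3% and 42.0% after quantile normalization. With TMM rescaling these shares were 40.1%, 43.4% and 32.5%. The median gene above 50 units fell by 0.17 in VM-3055 cells. For the difference between VIM-3039 and VM-3055 cells the share of higher genes was 61.2%, and 49.6% after TMM rescaling and 48.8% after quantile normalization. For that between VM-3055 and MYC-2983 cells it was 37.1%, and 47.6% after quantile normalization.

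In tumours no difference in Trp53 passed between VIM and the pooled VM and MYC tumours. VIM tumours measured 866, 1487 and 786 units in mice 3237, 3233 and 3130. VM tumours measured 1230, 235 and 705 units in mice 3115, 3055 and 2459, and MYC tumours 2092 units in mouse 2917 and 1699 and 2236 units in mouse 2983. The VIM values lay within the range of the pooled VM and MYC tumours. In limma, with the libraries of mouse 2983 averaged, 0 of the 10 members passed between VIM tumours and those with intact Ink4a/Arf, where 0.102% of all genes did (17 of 16607). At an unadjusted p under 0.05 there were 2, Ccng1 and Bax. The share of all genes at this unadjusted limit was not computed, here or in the comparisons with each type alone. The log2 change of Trp53 was -0.12 (SE 0.48). Against each type alone it went in opposite directions, 0.77 (SE 0.559, adjusted p = 0.65 in limma) against VM and -1.01 (SE 0.336, adjusted p = 0.29) against MYC tumours, whose libraries were all above those of VIM tumours, and neither passed. In VIM against VM tumours 0 members passed (background 0.249%), with the same 2 at an unadjusted p under 0.05, and in VIM against MYC tumours 0 (background 0.00616%), with 2, Trp53 and Bax. Of the 17 and 40 genes that passed in the first 2 comparisons 64.7% and 70% were higher, and 52% and 58.1% after quantile normalization. A difference within these errors is not shown to be absent.

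Among the members Bax had the smallest exact p. It measured 1838, 1524 and 2643 units in the VIM tumours, 1671, 835 and 819 units in the VM tumours and 911 units in mouse 2917 and 568 and 1218 units in mouse 2983. The groups overlap only through the VM tumour of mouse 3115. An exact two-sided permutation test of 3 VIM against 5 other animals gave a difference of 1.004 on the log2 scale with p = 0.0357 (the smallest that 56 splits allow is 0.0179), while its adjusted p over all genes in limma was 0.18. There were 10 such tests, 1 per member, whose p is not adjusted. Ccng1 measured 4829, 3815 and 13909 units in the VIM tumours, 4403, 1532 and 1372 units in the VM tumours and 3174, 1443 and 2610 units in the MYC libraries. Its difference was 1.5 with an exact p of 0.0536, and 0.0357 on values without a log. For the other 8 members the exact p was 0.268 or more.

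The 9 tumour libraries differed widely within a genotype. The VM tumour of mouse 3115 was the highest of the 3 VM tumours in 8 of the 10 members. Zmat3 measured 7840 units there against 773 and 566 units in the other VM tumours, Phlda3 831 units against 9.28 and 20.96 units, and Mdm2 2490 units against 876 and 998 units. Cdkn1a showed the same order, at 5929 units against 265 and 449 units. Cdkn2a did not, at 4298, 4347 and 3392 units in mice 3115, 3055 and 2459. In the same tumour the summed endothelial markers were 1372 units against 187 and 372 units, the leukocyte markers 2150 units against 820 and 1044 units, and the cycling genes 5473 units against 9353 and 12307 units. Whether these markers play a part in the members' levels was not tested, and in bulk tissue fewer cells of a type cannot be told apart from less RNA per cell.

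The 2 libraries of mouse 2983 also differed. Zmat3 measured 659 and 2251 units, Bax 568 and 1218 units, Phlda3 77.2 and 236 units and Sesn2 784 and 343 units in replicates 2 and 3. Replicate 2, with the lower Zmat3, Bax and Phlda3, was the library with high Cdkn2a (2872 units against 59.3 units), and its fibroblast markers summed to 4537 units against 534 units. Among the VIM tumours, mouse 3233 was highest in 4 of the 10 members and lowest in 5. Mouse 3130 was highest in 5, with Ccng1 at 13909 units, Mdm2 at 2091 units and Phlda3 at 576 units. Mouse 3130 was also lowest in 3, Trp53 among them at 786 units. Its renal epithelial markers summed to 8358 units against 14347 and 15285 units in the other VIM tumours, its proximal tubule markers to 1292 units against 3414 and 8278 units and its cycling genes to 4707 units against 5535 and 9477 units, and their part was not tested.

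**Figure D5:**
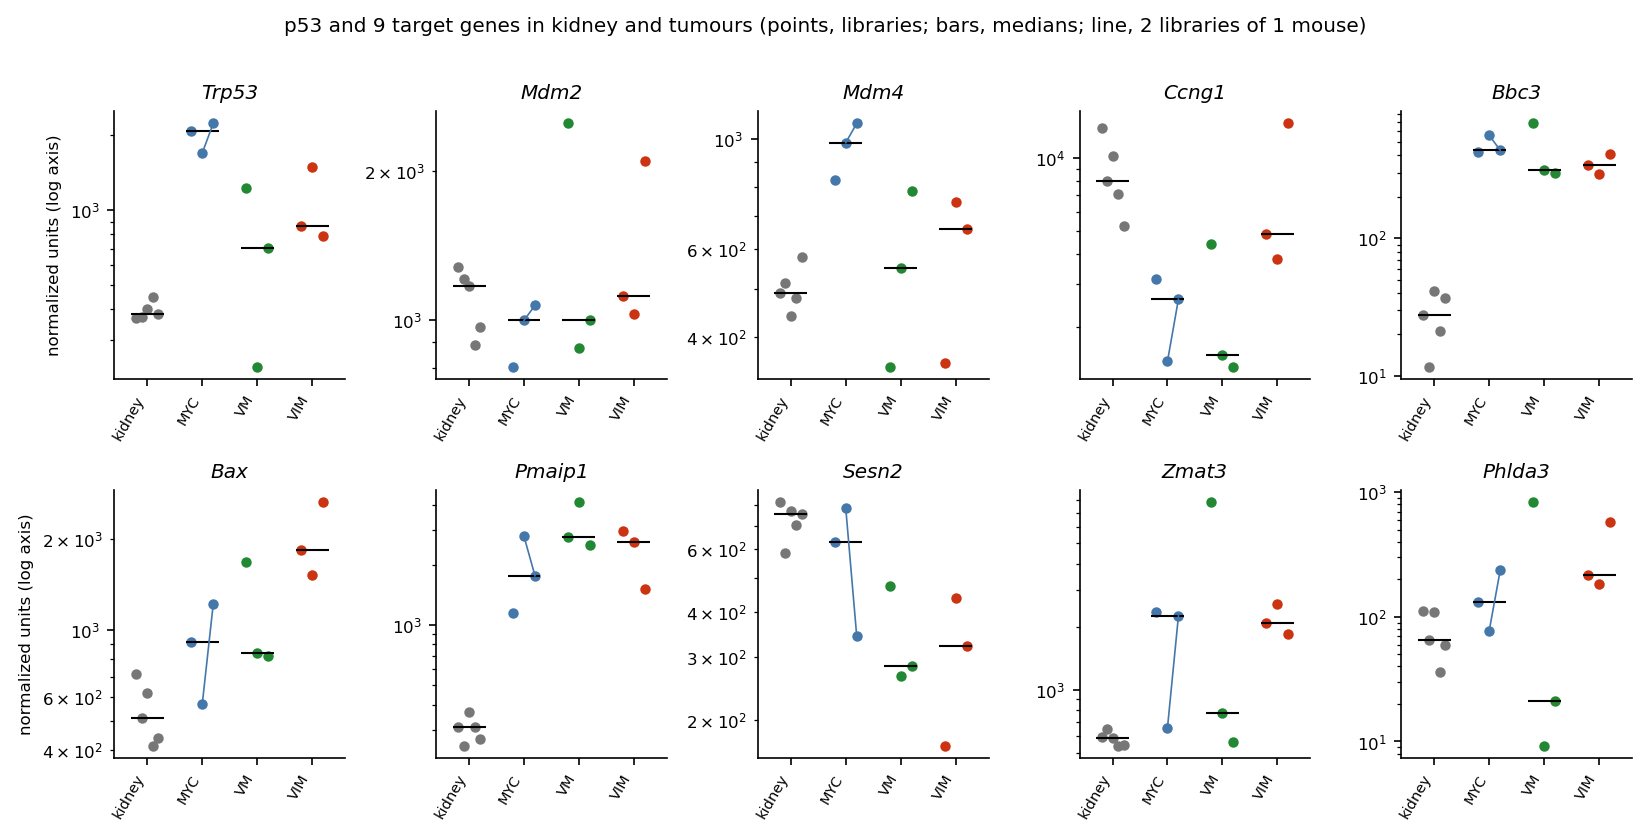
Levels of the 10 members in normal kidney and in MYC, VM and VIM tumours, as normalized units on a log axis. Points are libraries, bars are medians, and a line joins the 2 libraries of mouse 2983. Bbc3 and Pmaip1 in every tumour lie above every kidney, and the topmost VM point in Zmat3 and Phlda3 is mouse 3115.

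Against normal kidney the 2 BH3-only members were the ones that rose in all 3 tumour types. Bbc3 was 11.7 to 41.5 units in the 5 kidneys and 291 to 683 units in the 9 tumour libraries, with log2 changes of 4.11 (SE 0.495) in MYC, 3.92 (SE 0.469) in VM and 3.70 (SE 0.421) in VIM tumours. Pmaip1 was 249.6 to 365 units in kidney and 1150.2 to 4116 units in the tumours, with changes of 2.42, 3.35 and 2.92. The groups did not overlap for either gene, and the 3 comparisons share the kidneys. VIM tumours had 6 members higher and 1 lower (background 18.9% higher and 20.7% lower, median 1.61 beside 0.01), MYC tumours 4 higher and 1 lower (18.8% and 18.6%) and VM tumours 2 higher and 2 lower (17.3% and 22.5%).

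Trp53 was 369 to 449.5 units in kidney, and it was higher in MYC (log2 change 2.36, SE 0.136) and VIM tumours (1.35, SE 0.217). In VM tumours its change of 0.58 did not pass, and without mouse 3055 it was 1.24 and passed. Zmat3 was 542 to 653 units in kidney and was higher in MYC (1.54) and VIM tumours (1.88), although the MYC value lost its call when all tissue groups were fitted together. In VM tumours its change of 1.37 did not pass, and it was 2.08 and passed without mouse 2459. Bax passed in VIM tumours alone (1.88, SE 0.238), at 414 to 713 units in kidney. In VM tumours it was 0.99 and passed in 6 of the alternatives, at 1.01 to 1.21. Phlda3, at 35.8 to 111 units in kidney, was 2.01 higher in VIM tumours (SE 0.479), a call that was lost with all tissue groups in 1 fit and against the 2 kidneys titled B6 alone (1.37). In VM tumours it was -0.31, and -2.24 with a call without mouse 3115.

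Ccng1 and Sesn2 went the other way. Ccng1 was 13341 and 10199.5 units in the kidneys titled B6 and 8016, 7089.6 and 5231 units in those titled KT, and it was lower in MYC (-1.75, SE 0.357) and VM tumours (-1.99, SE 0.405), while the VIM value of -0.39 did not pass. Sesn2 was 587 to 813 units in kidney and was lower in VM (-1.13, SE 0.21) and VIM tumours (-1.32, SE 0.279). Without mouse 3055 the VM change was -0.98, and without mouse 3237 the VIM change was -0.94, and neither passed. Mdm2 (889 to 1277 units in kidney) had log2 changes of -0.26, 0.25 and 0.30 in MYC, VM and VIM tumours, and Mdm4 of 0.88, 0.10 and 0.16, and none passed. Proximal tubule and loop of Henle markers summed to 208671 to 246604 units in kidney and 1292 to 9696 units in tumours, and the cycling genes to 137 to 259 units and 4707 to 17058 units. The part of these differences in the members' changes was not tested.

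Among the other p53 targets 15 of 32 were higher and 1 lower in VIM tumours than in kidney, 12 and 4 in MYC tumours and 9 and 3 in VM tumours. The shares higher were 46.9%, 37.5% and 28.1% in this order. Of all genes tested 18.9% were higher and 20.7% lower in VIM, 18.8% and 18.6% in MYC, and 17.3% and 22.5% in VM tumours. After TMM rescaling the MYC count was 9 and 4. VIM tumours gave 18 and 1 after quantile normalization. Ckap2, which is also a gene of mitosis, had the highest change in all 3, at 4.97, 5.08 and 5.13 in VIM, MYC and VM tumours. Cdkn1a was 2254 to 2563 units in VIM tumours against 73.3 to 214 units in kidney (4.08, SE 0.323). Between VIM tumours and those with intact Ink4a/Arf 0 of 32 targets passed, with a median of 0.31, and Cdkn2a was the single regulator to pass (-4.29). The regulators against kidney gave 7 higher and 3 lower in MYC, 6 and 3 in VM and 5 and 2 in VIM tumours. That is 35%, 30% and 25% of the regulators higher in MYC, VM and VIM tumours, above the shares over all genes. It is 15%, 15% and 10% lower, below those shares. The BCL2 family gave 5 and 2, 5 and 3, and 6 and 3, in the same order of tumours, with Hrk at 5.26, 4.48 and 5.94. Of this family 15.4% to 23.1% were lower, near the shares over all genes, and 38.5% to 46.2% higher. The ATF4 targets gave 4 and 1, 5 and 0, and 5 and 0, with Asns, the asparagine synthetase, at 4.32, 4.61 and 4.90.

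Over the 24 cell libraries the Pearson r with Trp53 on log2 values was 0.95 for Ccng1, 0.93 for Mdm2, 0.90 for Bax, 0.89 for Phlda3, 0.73 for Mdm4, 0.60 for Bbc3, 0.59 for Sesn2, 0.36 for Pmaip1 and -0.12 for Zmat3. These libraries come from 3 lines, so such values mostly describe the difference between lines. Over the 14 tissue libraries r was -0.35 for Ccng1, 0.07 for Mdm2, 0.46 for Bax, 0.56 for Phlda3, 0.55 for Mdm4, 0.70 for Bbc3, -0.11 for Sesn2, 0.50 for Pmaip1 and 0.66 for Zmat3, and these libraries include 2 of 1 mouse. The tissue libraries are of kidney and of tumours, so such values can partly describe the difference between kidney and tumour. How far they do was not tested. The r with Trp53 was lower in tissue for 6 of the 9 members and higher for Bbc3, Pmaip1 and Zmat3. Bbc3 and Pmaip1 had r of 0.93 in tissue and -0.25 in cells. In both genes no kidney overlapped a tumour. The genes most like Trp53 over all 38 libraries, of 11870 that averaged 50 units or more, were Eda2r (r = 0.86), Gspt2 (0.85) and Hoxa11 (0.85). Those most like Mdm2 were Polk (0.85), a translesion DNA polymerase and p53 target, Asz1 (0.82) and Phlda3 (0.81). Within tissue alone r with Trp53 was 0.68 for Eda2r and 0.11 for Hoxa11.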

How the data were processed

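RNA-seq libraries (poly(A), stranded TruSeq kit) of tumour cell lines, tumours and kidney were used. The authors aligned paired reads to mm9 with MapSplice, estimated gene abundance with RSEM on UCSC known genes and set the upper quartile of every library to 1000. Per the labels, Picard 1.64 and SAMtools were also used. The deposited values are therefore a normalized signal, not counts, and depth was estimated from the step between low values. Samples were grouped by genotype, treatment and title.

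Values were taken to log2 (value + 1), so folds of low genes are understated, and tested with limma 3.58.1 in R 4.3.3 (eBayes with trend, two-sided, Benjamini-Hochberg adjustment over all genes tested). Genes had to be above 0 in at least 4 cell libraries or 2 animals. Each of 18 comparisons used its own groups. The 2 tumour libraries of mouse 2983 were averaged. Passing required a log2 change beyond 1 besides an adjusted p below 0.05. Single members in tumours were also tested by exact permutation over animals. Alternatives were pseudocounts of 0.1 and 10, filters, TMM rescaling, quantile normalization, other sets of samples, a replicate block and leaving out each library. The fit was tested on simulated data. The members and gene lists were chosen with earlier results of these data known. Members named are all 10, and other genes are the 4 largest changes of a list that passed, with genes named for their role added after values were seen. Motif searches used the NCBIM37 (mm9) genome with GENCODE gene starts. The values are not counts, so no counting intervals are given.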

Additional observations from a re-analysis of the deposited data

Results flagged for a closer look

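In 3 cases a single library stood apart from the other 3 of their group by Dixon's test. Phlda3 was 78.9 units in VM-3055 cells with Dox replicate 3, where the nearest library was 90.9 units. Bbc3 was 148 units in VM-3055 cells without Dox replicate 4, where the nearest was 113 units. Sesn2 was 105 units in VM-3055 cells without Dox replicate 1, where the nearest was 145 units. They are 3 of 70 sets of values examined, and chance alone flags about 1 in 20.

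The effect of Dox passed as different between lines, by the interaction term in limma, in 4 of 30 tests of members. Without the fold limit more differed. At an unadjusted p under 0.05 there were 5 of 10 members between VIM-3039 and VM-3055 cells and 7 in each comparison with MYC-2983 cells. The share of all genes at that limit was not computed, so these counts cannot be read as particular to the members. Those that passed were as follows. Ccng1 differed by 1.15 on the log2 scale between VIM-3039 and VM-3055 cells. Between VIM-3039 and MYC-2983 cells Phlda3 differed by 1.10 and Pmaip1 by -1.001. Trp53 differed by -1.18 between VM-3055 and MYC-2983 cells. There is 1 line per genotype, so these differences belong to lines.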

How the results depend on the processing

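Of 50 member results that passed, 392 of 402 values under other settings and 411 of 427 values with a library or animal left out still passed in the same direction, 10 and 16 no longer passed, and 0 reversed. With a library or animal left out, counts of members were 5 to 6 for VIM-3039 against VM-3055 cells with and without Dox (6 as reported), 2 to 3 for Dox in MYC-2983 cells (2), and against kidney 5 to 6 in MYC (5), 4 to 6 in VM (4) and 6 to 7 in VIM tumours (7). Other settings gave 4 to 6, 4 to 5 and 6 to 7 there. Counts that moved by more than 1.5 times under a setting were as follows. VM-3055 against MYC-2983 cells with Dox gave 0 with quantile normalization (1 as reported). The Dox effect between VIM-3039 and VM-3055 cells gave 0 with TMM rescaling (1), that between VIM-3039 and MYC-2983 cells 1 with either scaling and 1 to 2 with a library left out (2), and that between VM-3055 and MYC-2983 cells 2 with quantile normalization (1). The exact tests gave 2 without a log (1). Values that changed sign, none of which had passed, were Zmat3 (0.11, TMM) and Mdm4 (0.10, quantile) for VM-3055 against MYC-2983 cells with Dox, Trp53 (0.029, TMM, and 0.10, quantile) and Phlda3 (0.33, quantile) for Dox in VM-3055 cells, Mdm2 (0.043, TMM) for Dox in MYC-2983 cells and Sesn2 (0.30, quantile) for the difference between VM-3055 and MYC-2983 cells. The cause was not tested, other than the scaling itself.

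With the replicate block the members' counts were 6 and 6 for VIM-3039 against VM-3055 cells (with Dox, then without) and 1 each for Dox in VM-3055, Dox in VIM-3039 and their difference, so the block changed no count. Deviations of same-numbered libraries from their group means correlated by -0.319 to 0.247. Between VIM-3039 and VM-3055 cells without Dox the mean was 0.101, beside -0.034 for other numbers. Between the Dox states of VM-3055 cells it was -0.188, beside 0.063. The numbers thus gave no steady pairing. A count model was not run, since the values are normalized and not all were whole reads. Among low values (under 20 reads), 94.1% to 95.9% per library stood at whole multiples of the estimated step of 1 read. The depth of 8220000 reads in the shallowest library limits low genes, and 2 to 3 animals per tumour type limit the tumour comparisons.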
